A study of Homo sapiens with 3 samples.

Results

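The peaks described here lie at the centromeres of 7 human chromosomes, 3, 5, 6, 7, 10, 12 and 19, whose alpha satellite is assigned to suprachromosomal family 1. They were chosen by position alone: a peak was counted when its midpoint fell in chromosome 3 from 90.5 to 94.0 Mb, 5 from 45.6 to 50.5 Mb, 6 from 58.1 to 60.3 Mb, 7 from 57.8 to 63.1 Mb, 10 from 38.7 to 42.2 Mb, 12 from 34.2 to 37.6 Mb or 19 from 24.2 to 27.3 Mb (GRCh38). These windows held 510 of the 4889 peaks of the list, or 10.4% (Wilson 95% interval 9.61 to 11.3). The peaks came from ChIRP-seq in HEK293T, a widely used cell line of human embryonic kidney origin, with probes against KCNQ1OT1, the long noncoding antisense transcript of the imprinted KCNQ1 locus. In ChIRP, biotinylated oligonucleotides that pair with an RNA are used to pull it out of crosslinked, sonicated chromatin, and the DNA recovered with it is sequenced. There were 3 libraries from cells fixed with 3% formaldehyde for 30 min: a pulldown with the odd probe set, a pulldown with the even probe set and an input without probes, with 1 library in each group. One merged peak list was analysed, so no value below has a replicate, and all differences are descriptions with no test. A peak is a stretch of recovered DNA; contact of the RNA with it was not tested.

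Alpha satellite is the repeat that underlies human centromeres: short monomers stand head to tail, and a run of monomers is itself repeated many times with little change, forming a higher-order array on which the centromeric chromatin and the kinetochore assemble. Arrays of suprachromosomal family 1 are built from an alternating pair of monomer types, and one monomer of the pair often carries the CENP-B box, the short motif bound by the centromere protein CENP-B. The main arrays of chromosomes 5 and 19, and one array of chromosome 1, belong to a nearly identical group, so short reads from them are hard to assign to one chromosome. In GRCh38 such arrays are filled with modelled sequence, in which the order of the repeats is not that of a real chromosome. Neither repeat annotation nor genome sequence was used here. The assignment of a window to family 1 is therefore the label under which the peaks were selected, and whether a given peak lies in alpha satellite was not tested.

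The windows were dense in peaks on 6 of the 7 chromosomes. They held 19.7 peaks per Mb over 25.9 Mb, against 1.15 per Mb (1159 peaks) on the rest of the same chromosomes, a ratio of 17.1. In other words, 30.6% of the 1669 peaks of these chromosomes lay on 2.50% of their annotated span; assembly gaps were not excluded from either length. The 19 gene-free stretches of at least 2 Mb on the other chromosomes, Y left out, held 1039 peaks at 6.98 per Mb. Assembly gaps were not excluded from their 148.9 Mb either, and the peaks within them were uneven. In the stretch of chromosome 1, 160 peaks below its longest peak-free gap stood at 44.8 per Mb of the block they span. With only the peaks at or above the median −log10 p of the list, 157 window peaks were left and the ratio to the rest of the chromosomes was 9.20.

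Chromosome 7 had the most peaks, 132, at 24.9 per Mb. Chromosome 5 followed with 98 peaks and 20 per Mb. Chromosome 3 had 72 peaks (20.6 per Mb), chromosomes 12 and 19 had 69 each (20.3 and 22.3 per Mb) and chromosome 10 had 64 (18.3 per Mb). Chromosome 6 stood apart with 6 peaks, or 2.73 per Mb. The density of the windows thus spanned a narrow range on 6 chromosomes, and that of chromosome 6 was 2.33 times that of the rest of the chromosome, against ratios from 9.15 on chromosome 19 to 22.7 on chromosome 7. The lower ratio of chromosome 19 goes with its arms, which held 2.43 peaks per Mb, against 0.990 to 1.17 on the others.

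**Figure D1:**
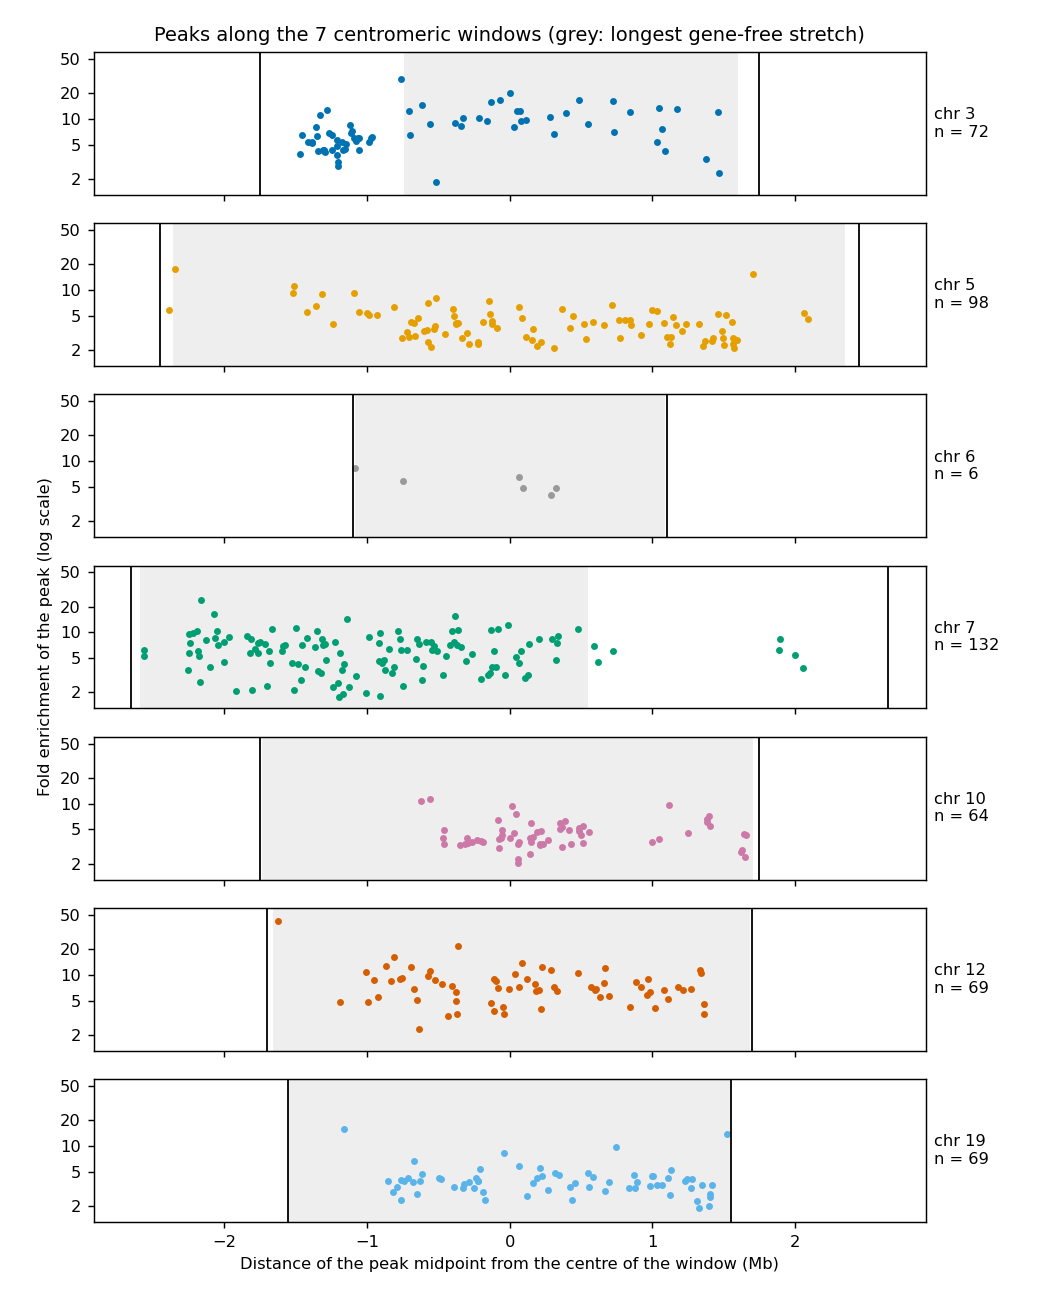
Fold enrichment (vertical, log scale) of each of the 510 peaks against its distance from the centre of its window (horizontal, Mb), 1 panel per chromosome; black lines bound the window and grey marks its longest stretch without a gene. Peaks fill broad blocks on 6 chromosomes, the block of chromosome 3 is split into a dense lower part and a sparse part of higher fold, and chromosome 6 has 6 peaks.

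The windows hold few genes. Of 25 genes in the RefSeq table that reach into a window, 18 are pseudogenes, 4 are protein-coding and 3 are lncRNA genes. The transcribed pseudogene LOC101930420 (chromosome 3, 91374236 to 91513775) had a peak of 567 bp near its higher-coordinate end, at 91492212 to 91492778, with a fold of 29.3, the fold being the deposited enrichment of the pulldown over background. PROS1, the gene of the anticoagulant protein S, lay 158 kb from the nearest window peak. EMB, the gene of the cell surface glycoprotein embigin, lay 258 kb away. Among the 4 promoter stretches in the windows, each from 250 bases before to 50 after a RefSeq start (PROS1, LINC02963 and the lncRNA gene LOC102723842, which has an entry for each of 2 starts), 0 overlapped a peak. The smallest distance from such a stretch to a peak was 19.2 kb, at LOC102723842.

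To separate the inner part of a window from its flanks, the longest stretch without any gene was taken as the core. Cores made up 85.6% of the window length, 22.2 of 25.9 Mb, and held 463 of the 510 peaks, 90.8% (Wilson 95% interval 87.96 to 93.0). The density was 20.9 per Mb in the cores and 12.6 per Mb in the flanks, a ratio of 1.66. That ratio rested on individual windows: without chromosome 3 it was 6.15, and without chromosome 7 it was 0.690, with the flank the denser. On chromosome 19 the whole window was free of genes, and on chromosomes 10 and 12 all peaks were in the core. On chromosome 7 the core (57868450 to 60991901) held 125 peaks at 40.02 per Mb and the flank 7 peaks at 3.22 per Mb. On chromosome 3 the order was the opposite, with 34 peaks at 14.6 per Mb in the core (91513776 to 93843763) and 38 peaks at 32.5 per Mb in the flank. A core defined by genes thus did not mark the dense part of the window in the same way on these chromosomes.

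Peaks did not fill the windows evenly, and each window had a long stretch without any. On chromosome 10 the first 1130 kb of the window had no peak, and the first peak started at 39830455. On chromosome 7 a stretch of 1165 kb without a peak (61173119 to 62338355) separated 128 peaks from the last 4. Chromosome 5 had such a stretch of 822 kb (45708139 to 46530090), with 2 peaks below it and 96 above it. Chromosome 6 had one of 817 kb. On chromosomes 12, 19 and 3 the longest were 435, 385 and 285 kb. When each window was cut into 3 equal parts, 158 peaks fell in the lower, 238 in the middle and 114 in the upper parts. Chromosome 7 leaned to its lower part, with 72, 56 and 4 peaks, and so did chromosome 3, with 41, 20 and 11. Chromosome 10 had 1, 50 and 13 peaks. Of the 259 bins of 100 kb in the windows, 169 held a peak, and the fullest bin, on chromosome 3, held 10.

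The bounds of the windows fell in sparse sequence. The nearest peak inside a bound lay from 17.9 kb (chromosome 6, lower bound, fold 8.37) to 1131 kb (chromosome 10, lower bound, fold 10.8) from it. The nearest peak outside lay from 76.3 kb (chromosome 6, lower bound, fold 11.3) to 2928 kb (chromosome 3, lower bound, fold 14.5) away. Counting a peak by any of its bases in place of its midpoint left the number at 510.

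Chromosome 3 held a pair of blocks that differed in density, fold, −log10 p and width. Below LOC101930420, 37 peaks lay within 0.503 Mb (90780154 to 91282826), or 73.6 per Mb. Their median fold was 5.31 (95% interval of the median from order statistics 4.48 to 6.01), with a lowest value of 2.79 and a highest of 12.7. Above the pseudogene, 34 peaks were spread over 2.17 Mb (91541439 to 93715426), or 15.6 per Mb. Their median fold was 9.89 (8.17 to 12.3), from 1.82 to 20.02. The intervals of the medians of the 2 blocks do not overlap, although the values of single peaks do, and peaks of 1 list are not replicates. The −log10 p separated them further, with a median of 12.3 (11.1 to 15.9) and a highest value of 38.3 below, against a median of 163 (107 to 204) above. A −log10 p of at least 100 was found for 24.8% of the peaks of the list, for 31.5% on the rest of the same chromosomes and for 16.5% in the gene-free stretches of other chromosomes. Of the 34 peaks in the upper block 24 reached it, against 0 of the 37 in the lower block (Wilson upper bound 9.41%) and 41 of all 510 window peaks (8.04%). Median widths were 1467 bp (1327 to 1601) in the lower and 2735 bp (1996 to 2912) in the upper block.

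The peak with the highest −log10 p of all windows was the last but one of the upper block of chromosome 3. It lay at 93712588 to 93714322, was 1735 bp wide, and had a −log10 p of 1171, rank 11 in the list, with a fold of 11.9, rank 1847. The last peak of the window started 0.300 kb beyond it and had a fold of 2.34.

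**Figure D2:**
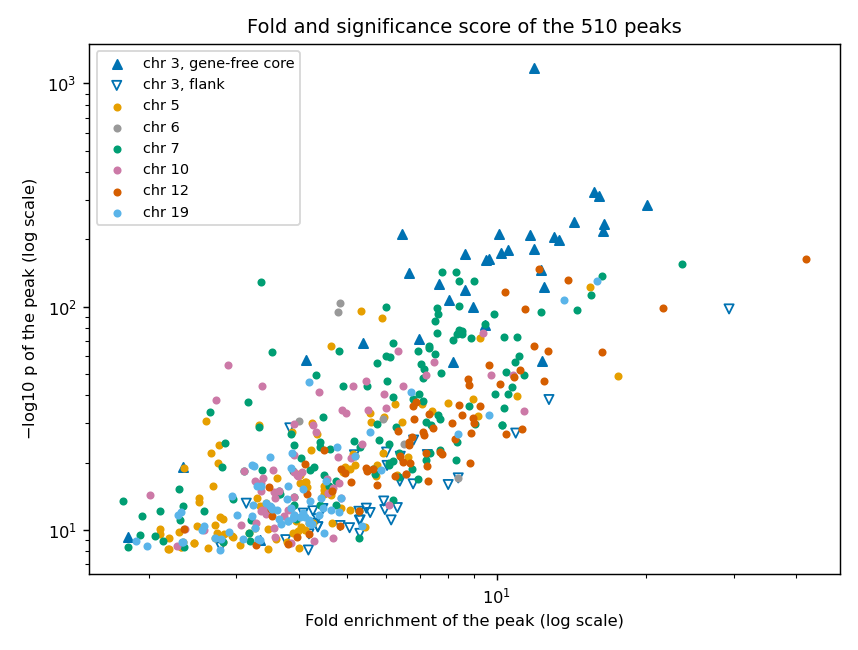
The −log10 p of each window peak (vertical, log scale) against its fold enrichment (horizontal, log scale), coloured by chromosome, with the gene-free core and the flank of chromosome 3 as filled and open triangles. Of the 34 core peaks of chromosome 3, 24 lie at a −log10 p of 100 or more, against 0 of its 38 flank peaks.

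Fold enrichment was low in the windows as a whole. The median was 4.86 (95% interval 4.57 to 5.29; interquartile range 3.59 to 7.27; n = 510), against 12.2 (11.4 to 13.7; n = 1159) on the rest of the same chromosomes, a ratio of 0.397. In the gene-free stretches of other chromosomes it was 6.51 (6.12 to 6.83; n = 1039). Folds of at least 10 made up 43.5% of the list, 56.0% of the rest of the same chromosomes and 28.0% of the gene-free stretches of other chromosomes. In the windows 58 peaks had one, 11.4% (Wilson 95% interval 8.90 to 14.4). Folds of at least 20 made up 25.5% of the list, 38.1% of the rest of the same chromosomes and 6.64% of those gene-free stretches. In the windows 5 peaks had one, 0.980% (0.419 to 2.27), and they lay on chromosome 3 (2), chromosome 12 (2) and chromosome 7 (1). The window median was below that of the rest of its chromosome on all 7, with ratios from 0.279 on chromosomes 5 and 10 to 0.676 on chromosome 12.

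Within the windows the median fold was higher on chromosomes 3, 7 and 12 than on chromosomes 5, 10 and 19. Chromosome 12 had a median of 7.14 (6.56 to 8.26; range 2.35 to 41.9), chromosome 3 had 6.56 (5.93 to 8.17; range 1.82 to 29.3) and chromosome 7 had 6.09 (5.50 to 6.96; range 1.78 to 23.6). Chromosome 6, with 6 peaks between 4.01 and 8.37, had 5.38. Chromosome 5 had 4.02 (3.47 to 4.25; range 2.10 to 17.5), chromosome 10 had 3.98 (3.65 to 4.69; range 2.01 to 11.3) and chromosome 19 had 3.81 (3.50 to 4.08; range 1.88 to 15.9). The intervals of chromosomes 12, 3 and 7 lie clear of those of chromosomes 5, 10 and 19, and the range of chromosome 6 overlaps both sets. The 38 flank peaks of chromosome 3 alone had a median of 5.32 (4.48 to 6.02), whose interval overlaps that of chromosome 10. Peaks of 1 list are not replicates, so the intervals do not test a difference between chromosomes. Of the 58 peaks with a fold of 10 or more, 51 lay on chromosomes 3 (20 of 72 peaks), 7 (16 of 132) and 12 (15 of 69). Those were 27.8%, 12.1% and 21.7% of the peaks of their windows. On chromosomes 5, 10, 19 and 6 the share was 3.06%, 3.1%, 2.90% and 0%.

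Chromosomes 5 and 19, whose main arrays are nearly identical, had similar values in fold and width. Their median folds were 4.02 and 3.81, their median widths 910 bp (816 to 1063) and 846 bp (789 to 1005), and their median −log10 p 14.4 (11.1 to 17.6) and 12.1 (11.4 to 13.2). The third chromosome with such an array, chromosome 1, has a gene-free stretch in which the peaks below its longest peak-free gap numbered 160. Those had a median fold of 4.01 (3.81 to 4.27), a median −log10 p of 12.5 (11.6 to 13.6) and a median width of 1094 bp (945 to 1234). They differed from chromosomes 5 and 19 in other values. Their block held 44.8 peaks per Mb, against 26.6 and 28.6 in the blocks above the longest gap of chromosomes 5 and 19. A neighbour within 10 kb was present for 70.6% (63.2 to 77.1), against 37.8% and 27.5% in those windows. A width of 2000 bp or more was found for 19.4%, against 6.12% on chromosome 5 and 2.90% on chromosome 19. Chromosome 10, which is not in that group, had a fold in the same range. The sources used here do not say how reads that map to several places were treated, and the part of this in these values was not tested.

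On chromosomes 5, 6, 10, 12 and 19 the peak with the highest fold was the first or second from the lower-coordinate end of the window. On chromosome 12 it was the first peak, at 34275069 to 34275623, with a width of 555 bp and a fold of 41.9, the highest of all windows; the next peak was 435 kb away. On chromosome 19 it was also the first, at 24584832 to 24587456 (fold 15.9), 307 kb from the next. On chromosome 6 the first peak had the highest fold (8.37), and on chromosomes 5 and 10 the second peak did, with 17.5 at 45707681 to 45708138 and 11.3 at 39888883 to 39890354. On chromosome 3 the highest fold was that of the peak in LOC101930420, 48.7 kb from its nearest neighbour. On chromosome 7 it was the 12th of 132 peaks, at 58288985 to 58291671 (fold 23.6). None of these 7 peaks had another within 10 kb, which also held for 264 of all 510 window peaks. For the one on chromosome 7 the nearest lay 10.1 kb away. By fold in the whole list, the best placed of these 7 was the peak on chromosome 12, at rank 437. On chromosomes 5 and 19 a peak of high fold also stood apart near the upper end, whereas the last peaks of chromosomes 3, 6, 7, 10 and 12 had folds from 2.34 to 4.85. The last peak of chromosome 19, at 27271154, had a fold of 13.7 and lay 102955 bp from its neighbour. On chromosome 5 the 96th of 98 peaks, at 49753546, had a fold of 15.4 and lay 108 kb from its nearest neighbour.

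Chromosome 6 can be given in full. Its first peak lay at 58117800 to 58118096, was 297 bp wide with a fold of 8.37, and ended 1.45 kb from the pseudogene RBBP4P4. The second started at 58449709 (862 bp, fold 5.92). After 817 kb without a peak came a peak of 1353 bp at 59267537 (fold 6.52) and one of 820 bp at 59291657 (fold 4.80). The last ones started at 59492830 (725 bp, fold 4.01) and 59521221 (938 bp, fold 4.85), the latter with the highest −log10 p of the window, 104. From there 778 kb up to the window's end held no peak. No peak of this window had a neighbour within 10 kb, and none was wider than 2 kb.

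**Figure D3:**
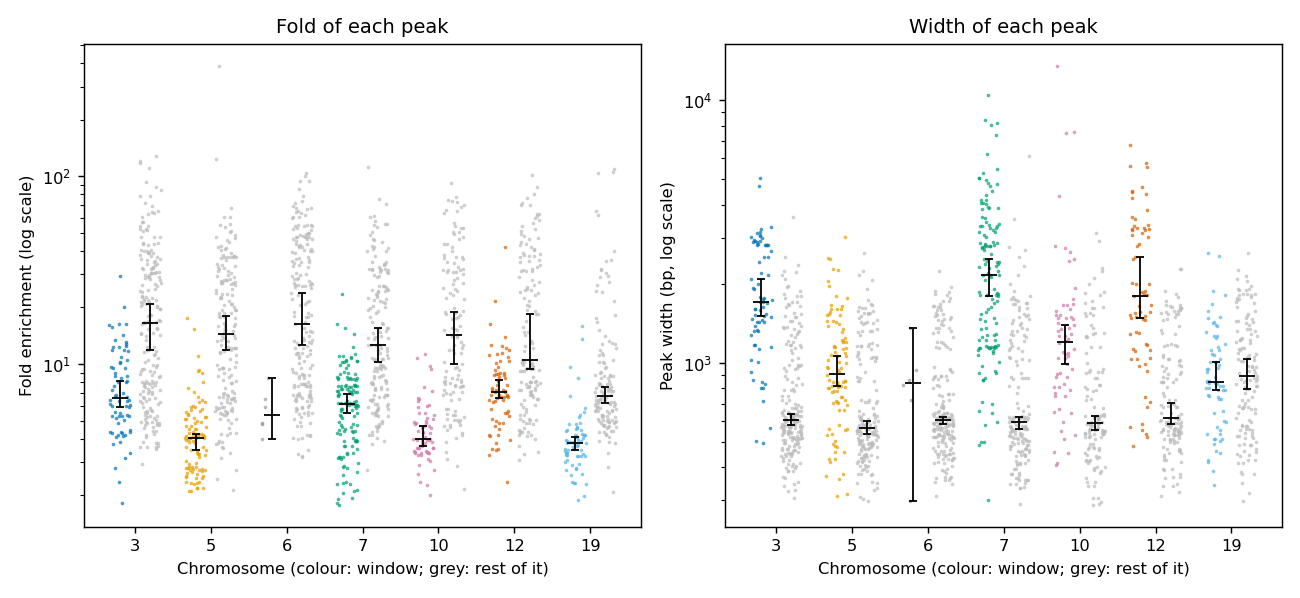
Fold enrichment (left, log scale) and width in bp (right, log scale) of each peak in the window of a chromosome (colour) and on the rest of that chromosome (grey), with the median and its 95% order-statistic interval in black (the full range for the 6 peaks of chromosome 6). Window medians of fold lie below those of the rest on all 7 chromosomes, and window medians of width lie above on all but chromosome 19.

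Window peaks were wide, again not to the same degree on each chromosome. The median width was 1322.5 bp (95% interval 1221 to 1433; interquartile range 849 to 2308), against 610.0 bp (595 to 622) on the rest of the same chromosomes, a ratio of 2.17, and 1572 bp (1524 to 1633) in the gene-free stretches of other chromosomes. Peaks of 2000 bp or more made up 13.0% of the list, 2.76% of the rest of the same chromosomes and 34.5% of the gene-free stretches of other chromosomes. In the windows there were 145, or 28.4% (Wilson 95% interval 24.7 to 32.5).

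Chromosome 7 had the widest peaks, with a median of 2163 bp (1789 to 2496), and 70 of its 132 peaks reached 2000 bp. Chromosome 12 had a median of 1797 bp (1483 to 2540) with 30 of 69 peaks of that width, and chromosome 3 had 1705 bp (1510 to 2079) with 28 of 72. Chromosome 10 had 1203 bp (989 to 1394) with 9 of 64. On chromosomes 5 and 19 there were 6 of 98 and 2 of 69. Chromosome 19 was the exception to the contrast with the arms: its window median, 846 bp, was close to the 893 bp (795 to 1037) of the rest of the chromosome, a ratio of 0.947, whereas the ratio was 3.63 on chromosome 7, 2.92 on chromosome 12 and 2.81 on chromosome 3. In all, peaks covered 909 kb of the windows, 3.51% of their length, from 0.227% on chromosome 6 to 6.29% on chromosome 7. On the rest of the same chromosomes they covered 0.0962%, and in the gene-free stretches of other chromosomes 1.29%.

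The widest peak of the entire list lay on chromosome 10, at 42074433 to 42087935. It was 13503 bp wide and had a fold of 2.88 and a −log10 p of 54.6. It belonged to a run of 5 peaks from 42066656 to 42104644, near the upper end of the window, in which peaks covered 86.5% of 38.0 kb. The other members of the run included peaks of 7477 and 7538 bp, and their folds ran from 2.37 to 4.39. These 3 were the peaks above 5 kb on that chromosome, where the 59 peaks outside the run had a median width of 1095 bp (914 to 1318). In all windows 18 peaks were wider than 5 kb, 10 of them on chromosome 7 and 4 on chromosome 12. The narrowest of the 18, of 5038 bp on chromosome 3, ranked 60 by width in the list. The windows thus held 18 of the 60 widest peaks, against 510 of all 4889 peaks (10.4%). The widest on chromosome 7 (60026981 to 60037478) had 10498 bp and a fold of 7.11, rank 6 in the list by width. On chromosome 12 the widest (37165089 to 37171840) had 6752 bp and a fold of 6.81. The median fold of these broad peaks was 7.13 (3.91 to 12.3) on chromosome 7 and 9.57 (range 6.81 to 12.7) on chromosome 12, above the medians of those windows. On chromosome 10 it was 2.88 (range 2.73 to 4.39), below that of its window. With so few peaks, each of these spreads includes the median of its window.

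Fold and width went together in the pooled windows and less so within most of them. Spearman's rho between them was 0.40 over the 510 peaks, 0.39 on chromosome 12 (n = 69), 0.38 on chromosome 3 (n = 72; 0.05 in its core and 0.05 in its flank), 0.20 on chromosome 10, 0.19 on chromosome 7, 0.11 on chromosome 5 and −0.07 on chromosome 19. On the rest of the same chromosomes it was −0.27 (n = 1159), and in the gene-free stretches of other chromosomes it was 0.53 (n = 1039), higher than in the windows. These are descriptions of peaks that share their libraries and their background, and in which fold and −log10 p come from the same reads. Between fold and −log10 p rho was 0.76 in the windows and 0.93 on the rest of the chromosomes. The summit stood near the middle of the peak, at a median of 49.4% of the width from its lower end. On chromosome 19 this value was 37.8%.

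Neighbouring peaks were common in the windows, at spacings of some 10 kb. Another peak within 10 kb, edge to edge, was present for 20.7% of all peaks of the list, 52.0% of those in the gene-free stretches of other chromosomes and 4.14% on the rest of the same chromosomes. In the windows 246 of 510 peaks had one, 48.2% (Wilson 95% interval 43.9 to 52.6). The distance to the nearest peak had a median of 10.4 kb in the windows, 9.26 kb in the gene-free stretches of other chromosomes and 242 kb on the rest of the same chromosomes. Chromosome 10 had the closest spacing, with a median nearest distance of 3.25 kb and 65.6% of peaks with such a neighbour (53.4 to 76.1), followed by chromosome 7 with 7.28 kb and 60.6% (52.1 to 68.5). On chromosome 3 the share was 54.2%, and there 31 of the 39 peaks with a neighbour were in the flank that holds the dense lower block. Chromosome 12 had 42.0%, chromosome 5 37.8% and chromosome 19 27.5% (18.4 to 39.0). Over the whole window chromosome 19 had more peaks per Mb than chromosome 10, but the 51 peaks of chromosome 10 below its longest gap between peaks stood at 43.4 per Mb, against 28.6 per Mb for the 68 peaks of chromosome 19 above its own.

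Chained at gaps of up to 10 kb, the window peaks formed 38 clusters of at least 3, which took in 138 peaks (27.1%). Another 54 pairs took in 108, and 264 peaks stood alone. No cluster had more than 5 peaks: 9 had 5, 6 had 4 and 23 had 3. Clusters spanned 6.23 to 43.5 kb with a median of 16.8 kb, and peaks covered a median of 34.1% of that span. Without chromosome 7, which had 16 clusters, 22 were left. With peaks at or above the median −log10 p of the list alone, 1 cluster was left. Each of the 38 clusters included at least 1 peak below that median.

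The largest cluster of chromosome 7 (60309486 to 60353017) held 5 peaks with folds from 3.37 to 10.8. On chromosome 10, 9 clusters took in 53.1% of its peaks, the highest share. The largest by peaks and span was the run of broad peaks at 42066656 described above. On chromosome 3 all 5 clusters lay in the lower block, the largest from 90940949 to 90971538 with folds from 4.09 to 12.7, and the 34 peaks above LOC101930420 formed none. Chromosome 5 had 5 clusters, the largest with 5 peaks from 47656191 to 47687004 (folds 4.04 to 5.94). Chromosome 12 had 2, of which the larger, from 35520835 to 35538804, held 4 peaks and the second-highest fold of its window, 21.6. Chromosome 19 had 1, with 3 peaks from 27144842 to 27156994 and folds of 1.98 to 2.79. Above its longest gap its peaks stood at 28.6 per Mb, against 26.6 above the longest gaps of chromosomes 5 and 12. Below the longest gaps of chromosomes 7, 10 and 3 the densities were higher, at 39.0, 43.4 and 73.6 per Mb.

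**Figure D4:**
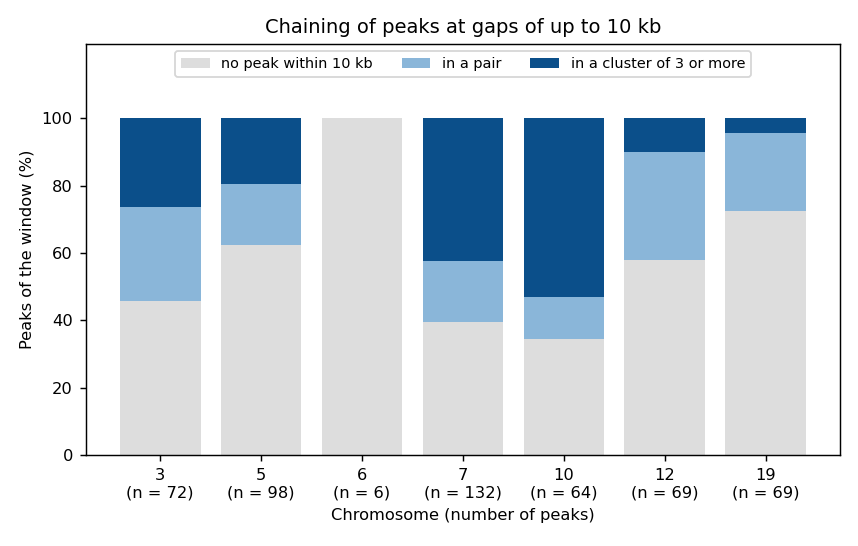
Share of the peaks of each window (vertical, %) that stand alone, in a pair or in a cluster of 3 or more when peaks are chained at gaps of up to 10 kb (shades), by chromosome with the number of peaks. Clusters take in 53.1% of the peaks on chromosome 10 and 42.4% on chromosome 7, against 4.35% on chromosome 19.

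The names of the peaks carry numbers that rise along each chromosome, and numbers are skipped where no peak of that number is in the list. Over the whole list the numbers run from 12 to 29556 for 4889 peaks, so most numbers were skipped outside the windows too. From the first to the last peak of each window 1814 numbers were passed, of which 510 are present (28.1%). On chromosome 3, 72 of 91 were present, 79.1% (Wilson 95% interval 69.7 to 86.2). Chromosomes 10 (53.3%), 5 (53.0%) and 19 (51.1%) were alike. On chromosome 7, 132 of 749 were present, 17.6% (15.1 to 20.5), and on chromosome 12, 69 of 525, 13.1% (10.5 to 16.3). On chromosome 6, 6 of 9 were present, 66.7% (35.4 to 87.9). Set against the 4889 peaks and the numbers of the whole list, chromosomes 7 and 12 were close to the list-wide share. The shares of chromosomes 3, 5, 10 and 19 were well above it. Chromosomes 7 and 12, with the lowest shares of the windows, had the greatest median widths, while chromosome 3, next in width, had the highest share present. The sources used here do not say what was removed between numbering and deposit, and the part of this in the counts of the windows was not tested.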

How the data were processed

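ChIRP-seq libraries of HEK293T cells (odd probes, even probes, input; 1 each) were represented by 1 merged list of 4889 peaks with 10 columns in the MACS2 layout. Bowtie2, MACS2 and GRCh38 are listed, per the submitters' processing notes; of versions, settings, control and merging the sources used here say nothing. Each peak name carries the label of the even pulldown. The authors deposited for every peak a fold enrichment (a linear ratio), −log10 of its p-value and of its q-value, and a score, which was the whole part of 10 times the −log10 p in 4889 peaks. These are the authors' values and were used only to describe, rank and filter peaks within the list. The list gives no read counts, so depth is unknown and intervals cover counting error only.

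Windows were read from the stated rule, and starts are given 1-based. Genes (59679 on primary chromosomes), their starts and promoter positions were from RefSeq for GRCh38.p14, and chromosome spans ran from the first to the last gene. Shares have Wilson 95% intervals, medians 95% intervals from binomial order statistics. With 1 list there was no test. Named are, per window, the peaks of highest fold, highest −log10 p and greatest width, the largest cluster, and genes with a peak or protein-coding genes, of which some items are not reported here; the peaks of chromosome 6, the run on chromosome 10, the blocks of chromosome 3, the set on chromosome 1 and peaks at the bounds were picked once their values were known. The windows and measures were chosen with earlier results of these data known. Alternatives were stricter lists, membership by any base, other cores, chaining distances and comparison sets, and each window left out. The scripts (Python 3.11.15, numpy 2.4.6, pandas 2.3.3, scipy 1.17.1, matplotlib 3.10.9) were tested on simulated lists. No sequence of a peak is printed, since none was used here.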

Additional observations from a re-analysis of the deposited data

Results flagged for a closer look

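Outside the comparisons above, 148 peaks of the list lay on sequences other than the primary chromosomes, more than a count of 0 allows. They were not assigned to a centromere and were not analysed here.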

How the results depend on the processing

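Of 112 alternative values, 69 stayed within the interval of the reported value (counts: within 1.5 times), 42 moved outside it and 1 changed direction. Membership by any base and the arms of the other chromosomes as comparison moved none. With only the peaks at or above the median −log10 p, there were 157 window peaks, a density ratio to the rest of the chromosomes of 9.20, a core share of 96.2%, a core to flank ratio of 4.24, 24.8% of peaks with a neighbour, 1 cluster, a median width of 2244 bp (3.92 times the rest) and a median fold of 8.41 (0.306 times the rest). With a fold of 5 or more, the same values were 246, 9.32, 87.4%, 1.17, 33.7%, 9, 1721.5 bp (2.89), and 7.38 (0.485). A core free of protein-coding genes held 99.8% of peaks (density ratio 6.51) and the middle of 3 equal parts held 46.7%. A neighbour was present for 28.8% of peaks within 5 kb (11 clusters), for 71.0% within 20 kb, and for 40.4% between midpoints within 10 kb. Leaving out each window in turn gave a core share of 88.8 to 97.9%, a core to flank ratio of 0.690 (without chromosome 7, the change of direction) to 6.15, a share with a neighbour of 43.9 to 51.5%, 22 to 38 clusters, a median width of 1166 to 1472.5 bp (1.91 to 2.43 times the rest) and a median fold of 4.54 to 5.32 (0.366 to 0.446 times the rest). In both stricter lists and without any one window, peaks were denser, wider and of lower fold in the windows than on the rest of the chromosomes. Where a value moved, the cause was not tested. No paired analysis was possible because each group had 1 library and the list is merged. Depth is unknown, so nothing can be said of peaks that were not called.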
